A study of Homo sapiens with 4 samples.

Results

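Messenger RNAs of 48 DNA replication and mitosis genes were followed between polysome and sub-polysome fractions of breast cancer cells. The 48 genes were listed by symbol for their known roles, and no measured value was used to list them. Earlier results of these data were known when the members and their classes were chosen. All 48 were found among the 28198 genes of the table, and all 48 were among the 10905 genes kept for averaging 1 FPKM or more in the 4 libraries. FPKM (fragments per kilobase of transcript, scaled to the fragments mapped) is a level per length, so levels of different genes can be set side by side on it. The list was divided by role into 10 G1 control genes, 15 S-phase genes and 23 mitotic genes.

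The cells were MDA-MB-231, a human breast cancer line of basal, mesenchymal type. They had been depleted of METTL3, the catalytic subunit of the RNA m6A methyltransferase, and then infected with lentiviruses carrying METTL3. One group received WT-METTL3 and the other K177Q-METTL3, in which the lysine that becomes acetylated is replaced by glutamine, a mimic of its acetylated form. Both groups were grown in the same serum-supplemented medium and treated briefly with cycloheximide, an elongation inhibitor that holds ribosomes on mRNA, before sucrose gradient centrifugation. Gradient fractions were pooled into a sub-polysome sample (ribosomal subunits and single ribosomes) and a polysome sample (mRNA with several ribosomes), and poly(A)-selected RNA was sequenced. The groups were WT sub-polysome, WT polysome, K177Q sub-polysome and K177Q polysome, each with 1 library from replicate 2. With 1 library per condition no spread between replicates was available, so no p-value is given, and a difference between genotypes cannot be told apart from a difference between these cultures or libraries.

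Progress through the cell cycle depends on successive waves of gene expression. In G1, cyclin D and cyclin E kinases lift the repression of E2F transcription factors, which drive genes for origin licensing, the replication fork and nucleotide supply. Genes for mitotic entry, the spindle and anaphase often carry CHR elements and CCAAT boxes. The DREAM complex represses them in G0 and G1, and in G2 its MuvB core joins B-MYB and FOXM1 to activate them. Several cell cycle proteins are also made and destroyed within a single cycle, so the translation of their mRNAs bears on how much protein is present.

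The 4 libraries held between 15773 and 16193 genes above 0 FPKM, and their totals ran from 767949 to 1037590 FPKM. The deposited values hold no counts. From the steps between low values, the depth was approximated as 24800000 to 26600000 fragments per library. Of the cell line markers, VIM, CD44, CAV1 and AXL were present in every library, with CAV1 lowest at 88.6 FPKM. ESR1 and PGR were at or near 0, and CDH1 was below 1 FPKM. Other markers listed as low or absent were present: EPCAM at 6.201 to 9.91 FPKM, GATA3 at 2.83 to 4.95 FPKM, and KRT8 at 271 to 691 FPKM. METTL3 was at 9.39 and 38.7 FPKM in the WT sub-polysome and polysome libraries, and at 5.07 and 29.5 FPKM in those of K177Q cells. METTL3 FPKM was thus lower in the K177Q than in the WT library of each fraction. Whether the METTL3 level has a part in the genotype differences below was not tested. A table of gene levels cannot separate the K177Q from the WT transcript, so METTL3 does not check the labels.

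E2F and CHR motifs were shared unevenly between the S-phase and the mitotic promoters. RefSeq promoters (GRCh38.p14, 250 bases before to 50 bases after each start) were matched for 37 of the 48 genes, 13 of them S-phase and 17 mitotic. The E2F letters searched were TTTCCCGC, TTTCGCGC, TTTGCCGC and TTTGGCGC, the CHR letters were TTTGAA and TTCGAA, and the third motif was CCAAT, each on both strands. TTTGGCGC and TTTCGCGC overlap each other on opposite strands, so that 1 stretch can count as a pair of matches. An E2F match lay in 9 of the 13 S-phase and 1 of the 17 mitotic promoters, against 3.38% of all 27305 promoters and 5.83% of those of genes kept here. A CHR match lay in 12 of the 17 mitotic and 2 of the 13 S-phase promoters, against 16.3% of all promoters and 10.0% of those of genes kept. CCAAT was found in 15 of 17 mitotic and 9 of 13 S-phase promoters, against 35.7% of all. A match describes the letters in this window and is not evidence of binding.

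The stretches below, all upstream of the start and 5′ to 3′ on the gene's strand, show one motif of each kind in its setting, with E2F matches (first 3) or CHR matches (last 3) in capitals. They were chosen to show both classes, from genes whose promoter holds a match there.
CDT1, chr16:88803689-88803788, plus strand: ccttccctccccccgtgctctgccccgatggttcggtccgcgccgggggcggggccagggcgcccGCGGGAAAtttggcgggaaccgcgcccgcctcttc
TYMS, chr18:657553-657652, plus strand: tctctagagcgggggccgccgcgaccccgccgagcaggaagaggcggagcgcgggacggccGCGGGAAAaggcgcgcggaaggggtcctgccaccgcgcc
MCM6, chr2:135876444-135876603, minus strand: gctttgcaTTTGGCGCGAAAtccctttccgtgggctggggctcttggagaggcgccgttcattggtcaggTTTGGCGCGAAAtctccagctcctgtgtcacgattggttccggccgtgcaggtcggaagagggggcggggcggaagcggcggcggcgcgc
CCNB2, chr15:59105046-59105145, plus strand: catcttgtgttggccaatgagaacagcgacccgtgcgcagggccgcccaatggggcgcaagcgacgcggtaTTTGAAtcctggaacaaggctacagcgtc
PLK1, chr16:23678789-23678888, plus strand: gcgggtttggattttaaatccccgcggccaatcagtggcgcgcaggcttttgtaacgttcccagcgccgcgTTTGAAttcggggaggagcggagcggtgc
CDC20, chr1:43358881-43358980, plus strand: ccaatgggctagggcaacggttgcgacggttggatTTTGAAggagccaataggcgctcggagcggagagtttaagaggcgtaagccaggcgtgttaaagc

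**Figure D1:**
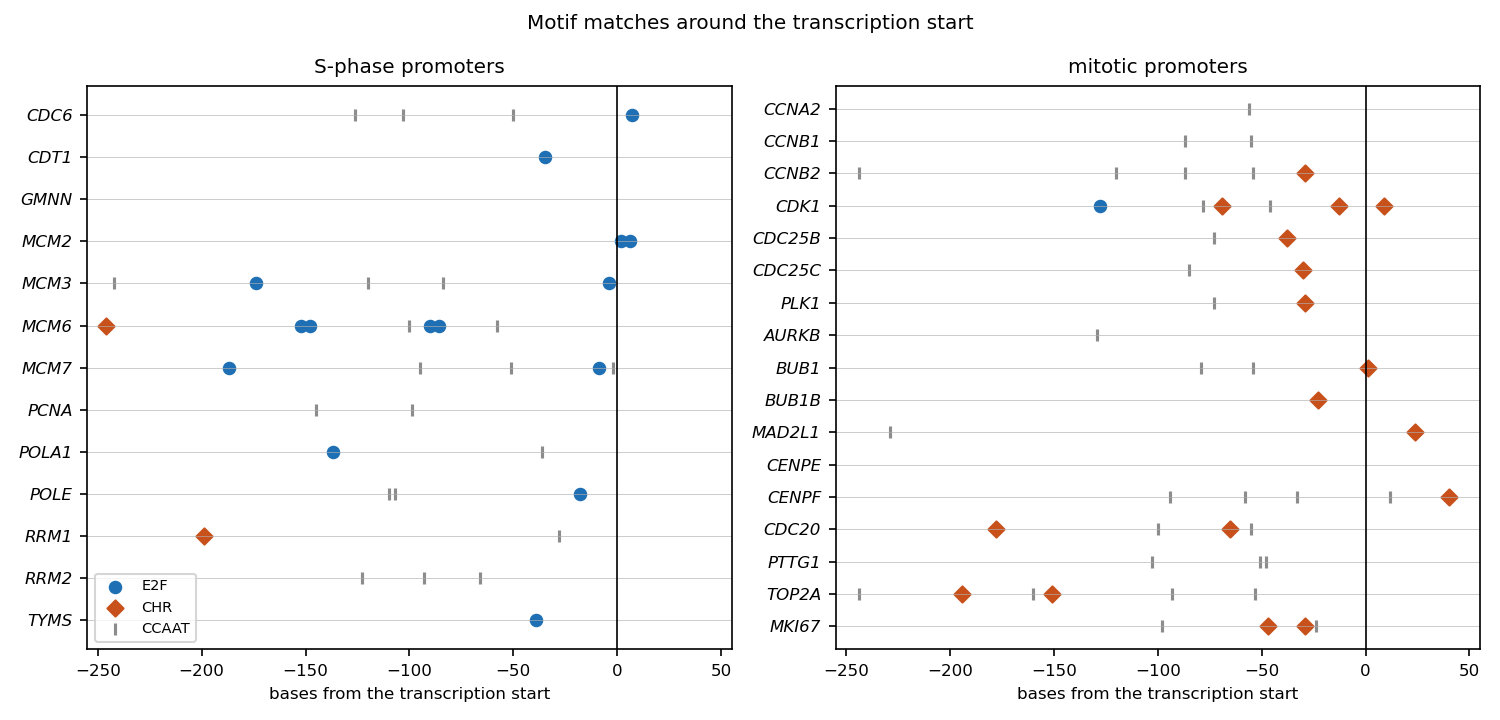
Positions of E2F (circles), CHR (diamonds) and CCAAT (ticks) matches in the 13 S-phase and 17 mitotic promoters found, in bases from the transcription start. E2F matches lie in 9 of the 13 S-phase promoters and CHR matches in 12 of the 17 mitotic promoters.

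The plot of motif positions shows that CDK1 was the mitotic gene with an E2F match, and that it also held 3 CHR matches. MCM6 and RRM1 were the S-phase genes with a CHR match. The start used for RRM1 lay 114 bases from the canonical transcript start, and that for AURKB, without a CHR match, 326 bases. GMNN and CENPE held none of the motifs in this window. Among further genes listed for the same pathways, E2F matches lay in 16 of 45 S-phase promoters and CHR matches in 42 of 55 mitotic promoters.

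The first question was how these mRNAs compared with other genes in their polysome to sub-polysome ratio. FPKM is scaled within each library, so this ratio ranks genes and does not give the share of an mRNA on polysomes. The position of 0 depends on the scaling. With every library rescaled to the same total (TPM), the all-gene median moved by 0.13 in WT and 0.43 in K177Q cells. Most S-phase and mitotic mRNAs were higher in the polysome than in the sub-polysome fraction, and the S-phase genes lay highest. The log2 ratio of polysome to sub-polysome FPKM, with 0.1 added to each value, had a median of 1.23 over the 15 S-phase genes in WT cells, a ratio of 2.34-fold. It was 0.89 over the 23 mitotic genes and 0.15 over the 10 G1 control genes, against 0.14 over all 10905 genes. In K177Q cells the medians were 1.26, 0.89 and 0.36, against 0.16 over all genes.

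At 1.5-fold, 31 of the 48 genes (64.6%) were higher in the WT polysome fraction, against 28.1% of all genes. They were 13 of 15 S-phase, 16 of 23 mitotic and 2 of 10 G1 control genes. In K177Q cells 32 of 48 were higher, against 30.2% of all genes. FOXM1 alone of the 48 was lower by 1.5-fold in the polysome fraction, in WT cells (19.1% of all genes) and in K177Q cells (21.3% of all genes). The S-phase and mitotic ranges overlapped. In WT cells 18 of the 23 mitotic genes were at or above the lowest S-phase gene, and 5 were above the S-phase median.

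**Figure D2:**
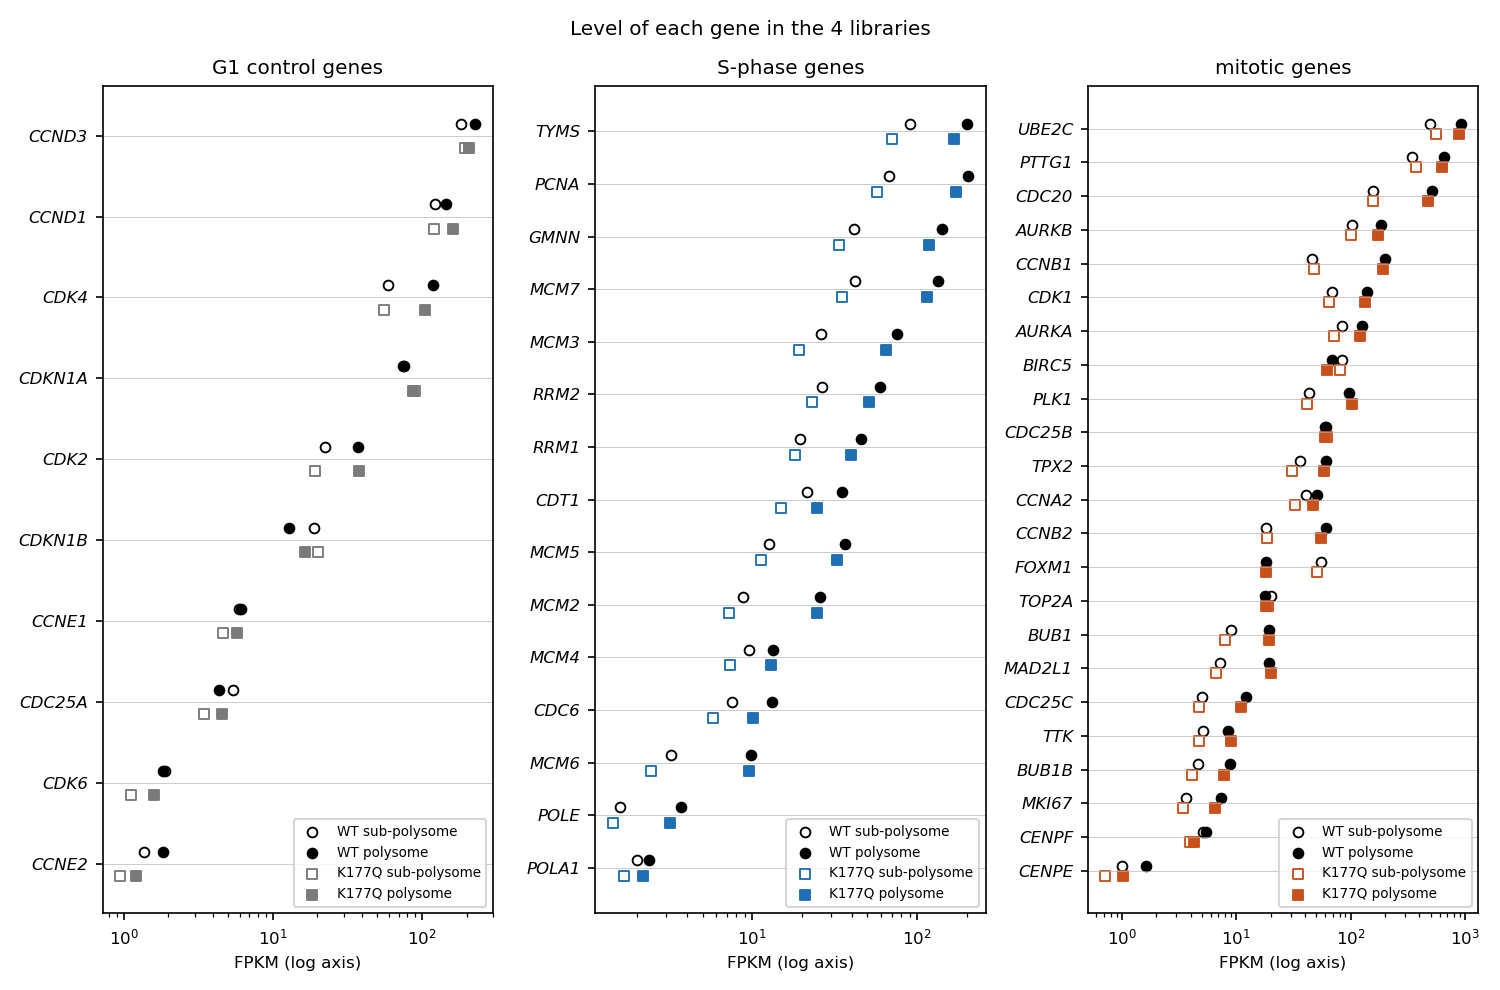
FPKM of each of the 48 genes (log axis) in the 4 libraries, by class. Circles are WT and squares K177Q; open symbols are sub-polysome and filled symbols polysome. Filled symbols lie to the right of open ones for all 15 S-phase genes, while FOXM1 has them reversed.

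The plot of FPKM by library also shows how far levels ranged within a class. UBE2C, at a mean of 714 FPKM over the 4 libraries, was the most abundant of the 48 genes, and CENPE, at 1.09 FPKM, was the least.

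Origin licensing opened the S-phase class. GMNN encodes geminin, which blocks relicensing by binding CDT1. Its level was 41.3 FPKM in WT sub-polysome, 142.2 in WT polysome, 33.7 in K177Q sub-polysome and 117.5 in K177Q polysome. Its polysome values stood far above its sub-polysome values, and in each fraction the K177Q library was the lower one. The log2 polysome to sub-polysome ratio of GMNN was 1.78 in WT and 1.80 in K177Q cells. CDC6 and CDT1, which load the helicase at origins, had smaller log2 ratios of 0.80 and 0.72 in WT cells.

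The 6 subunits of the MCM2 to MCM7 helicase, which unwinds DNA at the fork, had a median log2 ratio of 1.54 in WT cells and 1.72 in K177Q cells. Of these, 5 subunits lay between 1.53 (MCM5) and 1.66 (MCM7) in WT cells, with MCM2, MCM3 and MCM6 between them. MCM4 stood apart at 0.48, although the protein works in the same ring. MCM4 was at 9.55 FPKM in WT sub-polysome, 13.4 in WT polysome, 7.34 in K177Q sub-polysome and 13.0 in K177Q polysome. The MCM4 polysome values were alike and the K177Q sub-polysome value was the lowest. MCM6 was at 3.22, 9.87, 2.41 and 9.49 FPKM in the same order. Its pattern matched that of MCM4 with a wider gap between the fractions.

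Among fork components, PCNA, the sliding clamp, had a log2 ratio of 1.60 and POLE, the catalytic subunit of the leading-strand polymerase, 1.18 in WT cells. POLA1, the catalytic subunit of the primase-bound polymerase alpha, was the lowest S-phase gene at 0.23. It was at 2.00 FPKM in WT sub-polysome, 2.36 in WT polysome, 1.65 in K177Q sub-polysome and 2.18 in K177Q polysome. Its fractions differed little beside those of PCNA.

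The nucleotide supply genes lay close together. RRM1 and RRM2, the large and small subunits of ribonucleotide reductase, had log2 ratios of 1.23 and 1.18 in WT cells, and TYMS, the thymidylate synthase, 1.15. RRM1 was at 19.5 FPKM in WT sub-polysome, 45.9 in WT polysome, 18.2 in K177Q sub-polysome and 39.6 in K177Q polysome. TYMS was the most abundant S-phase gene, at 90.7, 201.5, 70.1 and 167.7 FPKM in the same order. In both genes the polysome values were the higher ones in each genotype.

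Mitotic entry genes held both ends of the whole range. CCNB1, cyclin B1, which activates CDK1 at mitotic entry, was at 45.6 FPKM in WT sub-polysome, 199.7 in WT polysome, 47.9 in K177Q sub-polysome and 192.4 in K177Q polysome. Its log2 ratio of 2.13 in WT cells was the highest of the 48 genes. FOXM1, the transcription factor that drives many G2/M genes, was at 55.1, 18.4, 50.7 and 18.1 FPKM in the same order. FOXM1 was thus the reverse of CCNB1, with its higher values in the sub-polysome libraries and log2 ratios of -1.58 in WT and -1.48 in K177Q cells.

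Between them lay CCNB2 (1.73 in WT cells), the CDK1 phosphatase CDC25C (1.24), the kinase PLK1 (1.16) and CDK1 itself (1.02). CCNA2, cyclin A2, had a log2 ratio of 0.33, and the phosphatase CDC25B was at -0.03. AURKA, the centrosomal kinase, was at 84.1 FPKM in WT sub-polysome, 125.3 in WT polysome, 71.1 in K177Q sub-polysome and 121.0 in K177Q polysome. Its polysome values were alike, with the K177Q sub-polysome value below that of WT.

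Spindle checkpoint and kinetochore genes were mostly polysome-high. MAD2L1, a checkpoint protein that holds CDC20 inactive, had the highest log2 ratio of this group at 1.43 in WT cells. The checkpoint kinases BUB1, BUB1B and TTK were at 1.11, 0.91 and 0.74, the spindle factor TPX2 at 0.77 and the kinase AURKB at 0.83. The kinetochore proteins CENPE and CENPF were at 0.63 and 0.08. BIRC5, survivin, which sits with AURKB in the chromosomal passenger complex, was at 83.3 FPKM in WT sub-polysome, 68.4 in WT polysome, 80.1 in K177Q sub-polysome and 62.3 in K177Q polysome. With the values as deposited, BIRC5 was lower in the polysome fraction in both genotypes, so the partners AURKB and BIRC5 lay on opposite sides of 0. With TPM the log2 ratio of BIRC5 was -0.15 in WT but 0.07 in K177Q cells, where AURKB was also above 0.

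The anaphase genes were the most abundant. CDC20, the activator of the anaphase-promoting complex, was at 156.9 FPKM in WT sub-polysome, 517.7 in WT polysome, 158.6 in K177Q sub-polysome and 472.3 in K177Q polysome. UBE2C, the ubiquitin-conjugating enzyme of that complex, was at 492.7, 916.2, 554.4 and 893.7 FPKM in the same order. PTTG1, securin, a substrate of the complex, had a log2 ratio of 0.94 in WT cells. All 3 were higher in the polysome fraction in both genotypes. Of the chromosome proteins, MKI67 (Ki-67) had a log2 ratio of 1.01 and TOP2A (topoisomerase II alpha) of -0.18 in WT cells.

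**Figure D3:**
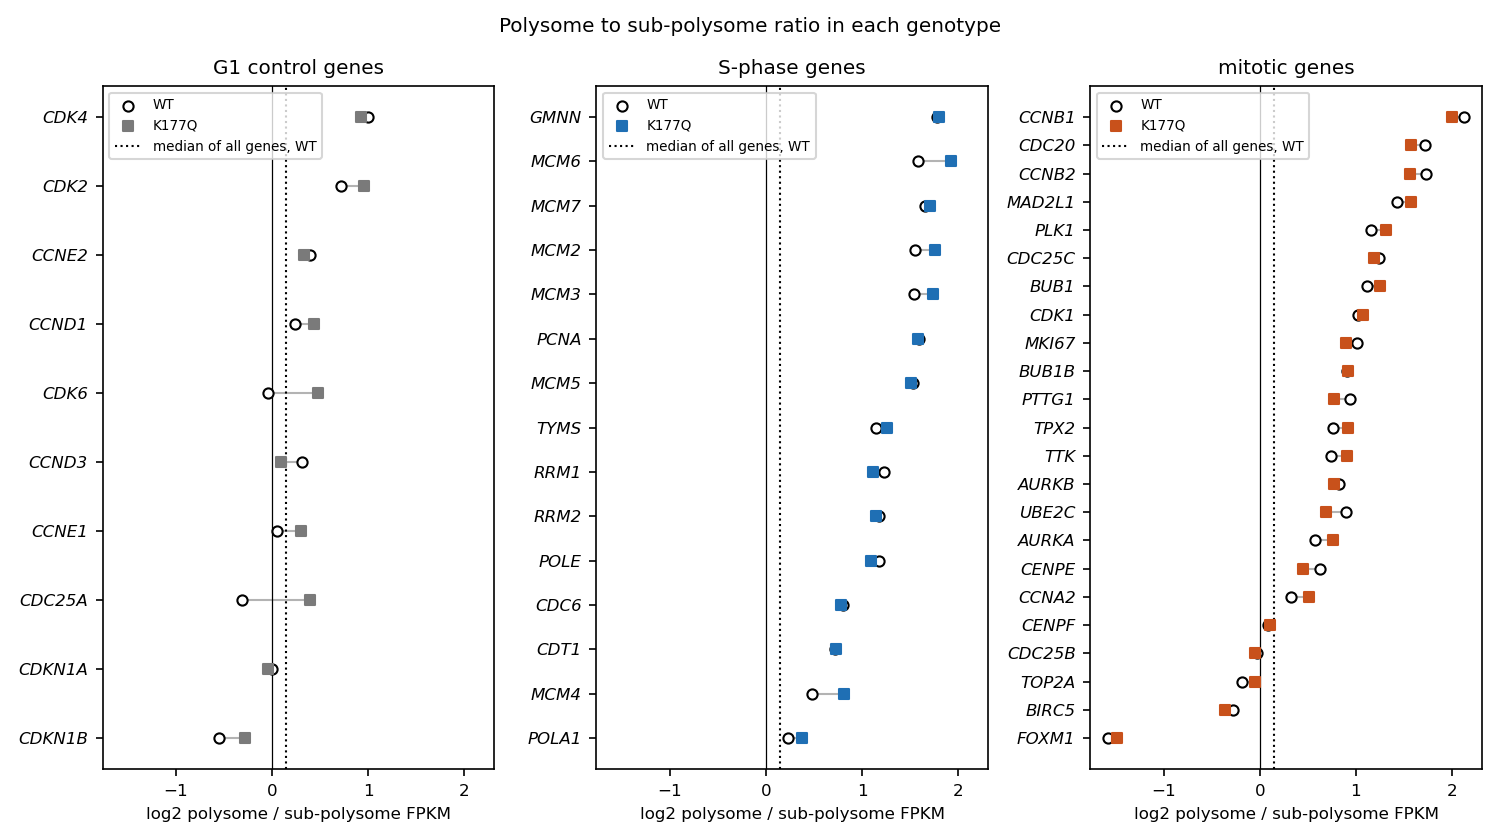
Log2 ratio of polysome to sub-polysome FPKM of each gene in WT (open circles) and K177Q cells (filled squares), by class, ordered by the mean of both; the dotted line is the WT median of all 10905 genes. All 15 S-phase genes lie above 0, mitotic genes run from FOXM1 at -1.58 to CCNB1 at 2.13, and the largest gaps between genotypes are CDC25A and CDK6.

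The plot of polysome to sub-polysome ratios shows G1 control genes closer to the all-gene median. The kinases CDK4 and CDK2 were the highest of them. CDK4, the cyclin D partner, was at 59.2 FPKM in WT sub-polysome, 118.8 in WT polysome, 55.5 in K177Q sub-polysome and 105.3 in K177Q polysome. CDK2, the cyclin E partner, was at 22.5, 37.2, 19.4 and 37.9 FPKM in the same order. Both were higher in the polysome fraction by over 1.5-fold in each genotype.

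The G1 cyclins CCND1, CCND3, CCNE1 and CCNE2 lay between 0.05 (CCNE1) and 0.40 (CCNE2) in WT cells. CCND3 was the most abundant G1 control gene, at 184.4 FPKM in WT sub-polysome, 229.4 in WT polysome, 195.2 in K177Q sub-polysome and 208.0 in K177Q polysome. Its gap between fractions was narrower in K177Q cells as deposited, but not with TPM, where its log2 ratio was 0.45 in WT and 0.53 in K177Q cells.

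The second question was whether these mRNAs were divided differently between the fractions in K177Q cells. For most members the genotypes differed little. The log2 translation efficiency ratio, the polysome to sub-polysome log2 ratio in K177Q cells minus that in WT cells, had a median of 0.02 over the S-phase genes and 0.01 over the mitotic genes, against -0.01 over all genes. S-phase genes ran from -0.12 (RRM1) to 0.34 (MCM6), and mitotic genes from -0.21 (UBE2C) to 0.19 (AURKA). The difference between the class medians was 0.01, and 16 of the 23 mitotic genes were at or above the lowest S-phase gene. At 1.5-fold, 1 of the 48 genes was higher, against 4.08% of all genes, and 0 were lower, against 7.03%. A share of 2.08% higher is below that of all genes.

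CDC25A was the gene past 1.5-fold. It encodes the phosphatase that activates CDK2 at the G1/S transition. Its level was 5.46 FPKM in WT sub-polysome, 4.37 in WT polysome, 3.47 in K177Q sub-polysome and 4.59 in K177Q polysome. The polysome values were close, and the K177Q sub-polysome value was the lowest of the 4, so its translation efficiency ratio of 0.71 (1.63-fold) came mostly from the sub-polysome values. Counting error alone, from the approximate fragment numbers, gave an SE of 0.14 on the log2 scale, which does not include variation between cultures.

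CDK6, the other cyclin D kinase, had a translation efficiency ratio of 0.51 with a counting SE of 0.13. It was at 1.90 FPKM in WT sub-polysome, 1.85 in WT polysome, 1.13 in K177Q sub-polysome and 1.61 in K177Q polysome. As with CDC25A, the K177Q sub-polysome library was the low one. The 10 G1 control genes had a median translation efficiency ratio of 0.22, and ran from -0.22 (CCND3) to 0.71.

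Rescaling every library to the same total (TPM) moved the all-gene median of the translation efficiency ratio by 0.30, to 0.29. On that scale the S-phase and mitotic medians were 0.32 and 0.30, again close to that of all genes. All 48 members were above 0 with TPM, as were 8769 of the 11143 genes kept on that scale. With the values as deposited, 27 members were above 0, as were 5332 of all 10905 genes. The sign of a single small ratio therefore depends on the scale.

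The third comparison was of K177Q with WT within each fraction. Here the classes of members parted: all 15 S-phase genes were lower in K177Q cells in both fractions, and 13 of the 23 mitotic genes were. The wider lists given below did not part in this way, with 72.9% (S-phase) and 71.9% (mitotic) lower in both fractions. The median log2 ratio of K177Q to WT in the polysome fraction was -0.22 over the S-phase genes and -0.05 over the mitotic genes, against -0.02 over all genes. With TPM the S-phase polysome median was -0.13 and the mitotic one turned to 0.04, against 0.07 over all genes. In the sub-polysome fraction, as deposited, the medians were -0.27 and -0.09, against 0.00. Of the 23 mitotic genes, 18 were lower in the polysome and 17 in the sub-polysome fraction, against 5856 and 5513 of all 10905 genes. A gene was below WT in both fractions in 15 of 15 S-phase, 13 of 23 mitotic and 4 of 10 G1 control genes, 32 of 48 in all, against 29.8% of all genes. In bulk libraries, fewer cells in S phase and less of these mRNAs per cell cannot be told apart.

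The differences were small. At 1.5-fold in the polysome fraction, 0 of the 48 genes were higher, against 2.13% of all genes, and 1 was lower, against 3.13%. In the sub-polysome fraction 0 were higher, against 4.01%, and 2 were lower, against 2.94%. No S-phase gene was among them. The lower genes were CENPE in the polysome fraction, and CDK6 (-0.70) and CDC25A (-0.64) in the sub-polysome fraction. CENPE, the kinetochore motor, was at 1.01 FPKM in WT sub-polysome, 1.61 in WT polysome, 0.72 in K177Q sub-polysome and 1.02 in K177Q polysome. It was lower in K177Q cells in both fractions, with a log2 ratio of -0.61 and a counting SE of 0.12 in the polysome fraction.

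Of the S-phase genes, CDT1 lay farthest below WT in both fractions, at -0.51 in the polysome and -0.53 in the sub-polysome fraction. It was singled out after its values were seen. CDT1 was at 21.4 FPKM in WT sub-polysome, 35.2 in WT polysome, 14.8 in K177Q sub-polysome and 24.8 in K177Q polysome. Both K177Q values were below their WT counterparts by a similar factor. CDC6, its partner in loading the helicase, was at -0.38 and -0.36 in the polysome and sub-polysome fractions. GMNN was at -0.28 and -0.29.

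The MCM genes were not alike in how the fractions compared. Their median log2 ratio of K177Q to WT was -0.32 in the sub-polysome fraction and -0.11 in the polysome fraction. MCM4 and MCM6 were at -0.04 and -0.06 in the polysome fraction but -0.38 and -0.40 in the sub-polysome fraction. MCM5 (-0.16 and -0.15) and MCM7 (-0.22 and -0.26) had similar ratios in the polysome and sub-polysome fractions, while MCM2 (-0.06 and -0.27) and MCM3 (-0.23 and -0.43) lay lower in the sub-polysome fraction. RRM1 had the reverse order, at -0.21 in the polysome and -0.10 in the sub-polysome fraction. RRM2, POLE and PCNA lay between -0.25 and -0.13 in both fractions. With TPM, 12 of the 15 S-phase genes were below WT in both fractions, against 31.3% of all genes, as MCM2, MCM4 and MCM6 turned to slightly above 0 in the polysome fraction (at most 0.05). On that scale 75.9% of all genes and all 23 mitotic genes, like all 15 S-phase genes, were below WT in the sub-polysome fraction, so its sign did not separate the classes.

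**Figure D4:**
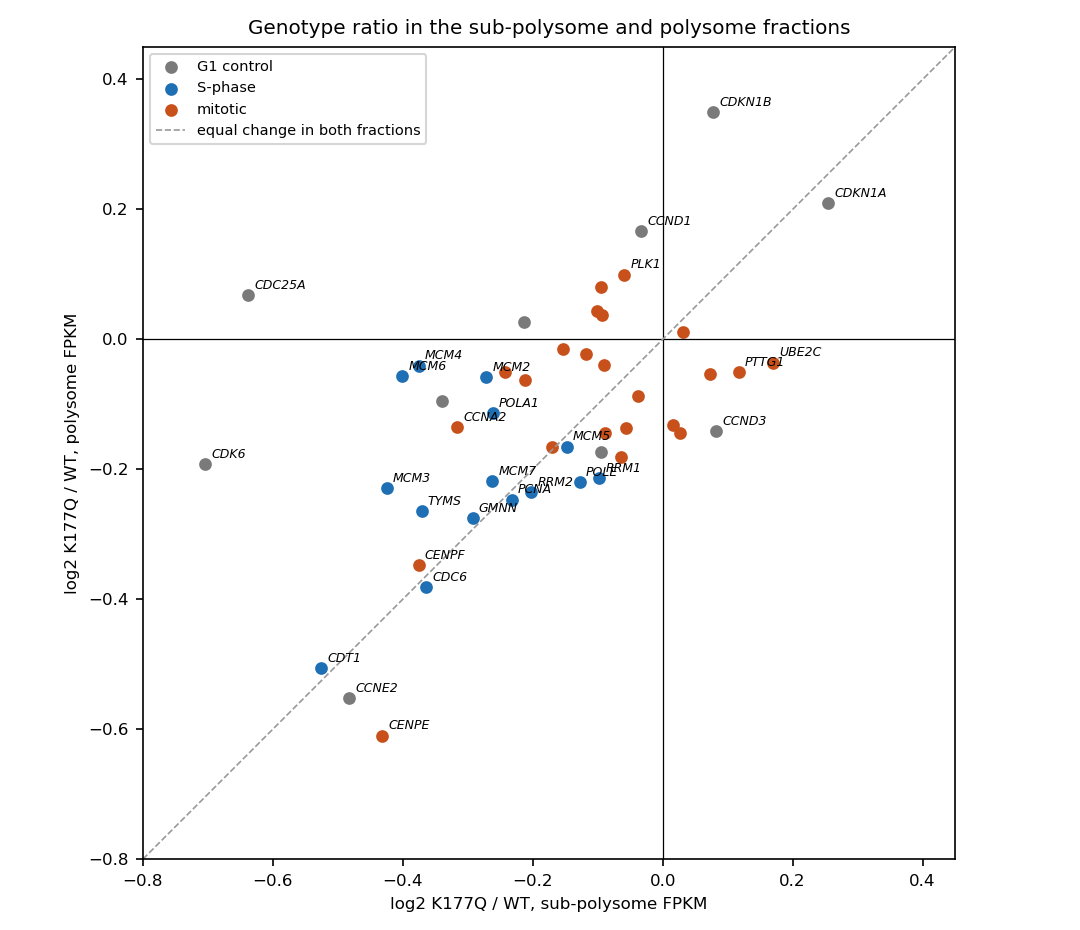
Log2 ratio of K177Q to WT FPKM of each gene in the sub-polysome (horizontal axis) and the polysome fraction (vertical axis), coloured by class; the dashed line marks equal ratios in both. The 15 S-phase genes lie to the lower left of both zero lines, and CDKN1A and CDKN1B lie farthest to the upper right.

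In the plot of the fractions against each other, a point above the dashed line has a translation efficiency ratio above 0. The S-phase median was lower than the mitotic median by 0.17 in the polysome and 0.18 in the sub-polysome fraction. Of the 15 S-phase genes, 14 were below the mitotic median in the polysome fraction (the exception was MCM4) and all 15 in the sub-polysome fraction. The classes still overlapped, since CENPE and CENPF lay below the S-phase median in both fractions, and CCNA2 did so in the sub-polysome fraction.

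Among the mitotic genes, PLK1 (0.10) and TTK (0.08) had the highest polysome ratios of K177Q to WT, and CENPF (-0.35) was second lowest after CENPE. The anaphase genes CDC20, UBE2C and PTTG1 were slightly above WT in the sub-polysome fraction (0.02, 0.17 and 0.12) and below it in the polysome fraction (-0.13, -0.04 and -0.05). All 3 signs in the sub-polysome fraction, and those of UBE2C and PTTG1 in the polysome fraction, turned with TPM. With TPM, 9 of the 23 mitotic genes (39.1%) were below WT in both fractions, against 31.3% of all genes.

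The inhibitors of cyclin-dependent kinases were higher in K177Q cells in both fractions, as was CDC25B by at most 0.03. CDKN1A, p21, was at 75.5 FPKM in WT sub-polysome, 75.6 in WT polysome, 90.0 in K177Q sub-polysome and 87.5 in K177Q polysome. CDKN1B, p27, was at 19.1, 13.0, 20.1 and 16.6 FPKM in the same order. The log2 ratios of K177Q to WT were 0.21 in the polysome and 0.25 in the sub-polysome fraction for CDKN1A, and 0.35 and 0.08 for CDKN1B, whose sub-polysome sign turned with TPM (-0.13). Both K177Q values of each inhibitor exceeded the WT values of the same fraction, by less than 1.5-fold. CCNE2 was lower in both fractions (-0.55 and -0.48), but rested on the fewest fragments, about 63 in the K177Q sub-polysome and 86 in the K177Q polysome library. CCND1 was at 0.17 in the polysome and -0.03 in the sub-polysome fraction, and CCNE1 at -0.09 and -0.34.

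Further genes of the same pathways, 50 for S phase and 66 for mitosis, were set beside the members. Of these, 48 and 64 were kept, with TICRR, E2F2, HMMR and KNL1 below the minimum. The other S-phase genes had median log2 ratios of K177Q to WT of -0.19 in the polysome and -0.25 in the sub-polysome fraction, near those of the 15 S-phase members. The other mitotic genes had medians of -0.17 and -0.18, lower than those of the 23 mitotic members. Of the other S-phase genes 35 of 48 (72.9%) were below WT in both fractions, and of the other mitotic genes 46 of 64 (71.9%), against 29.8% of all genes. The gap between S-phase and mitotic genes seen among the members was therefore not present in this count for the wider lists. Their polysome medians, -0.19 and -0.17, were also close.

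In WT cells the other S-phase genes had a median log2 polysome to sub-polysome ratio of 0.60 and the other mitotic genes of 0.46, both below the members of the same class. In K177Q cells these medians were 0.71 and 0.66, against 1.26 and 0.89 over the members. The S-phase and mitotic medians thus lay closer together in the wider lists than among the members. In the translation efficiency ratio, 2 of the 48 other S-phase genes and 0 of the 64 other mitotic genes were higher by 1.5-fold, against 4.08% of all genes. In each list 1 gene was lower, against 7.03% of all genes. These shares are near or below those of all genes, so the 4 genes are given as values only. RFC3, a subunit of the clamp loader, was at 5.54 FPKM in WT sub-polysome, 8.09 in WT polysome, 3.02 in K177Q sub-polysome and 8.05 in K177Q polysome, a translation efficiency ratio of 0.85. PRIM1, the catalytic primase subunit, was at 3.001, 9.57, 3.28 and 6.19 FPKM, a ratio of -0.74. RFC3 differed in the sub-polysome and PRIM1 in the polysome fraction. CDCA7, a DNA methylation factor, was at 2.62, 2.84, 1.85 and 3.14 FPKM, a ratio of 0.62. CENPN, a centromere protein, was at 22.02, 11.2, 21.8 and 5.85 FPKM, a ratio of -0.91, with the K177Q polysome library the low one.

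Coding length moved with the genotype comparison across all genes, so it is given beside the members. No protein sequences were used here, and coding lengths of the GENCODE 44 canonical transcripts stand in for protein lengths. Over 10305 genes the median translation efficiency ratio ran from -0.30 in the shortest of 10 length bins to 0.25 in the longest, with a Pearson correlation of 0.40 with log10 length. These points share the same 4 libraries. Over the 48 members the correlation was 0.02. It was 0.42 over the 10 G1 control genes, 0.17 over the S-phase and 0.12 over the mitotic genes. The 7 members in the longest bin all lay below its median of 0.25. POLE, CENPE, CENPF and MKI67 were at -0.09, -0.18, 0.03 and -0.12, and POLA1, BUB1 and TOP2A at 0.15, 0.14 and 0.13.

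**Figure D5:**
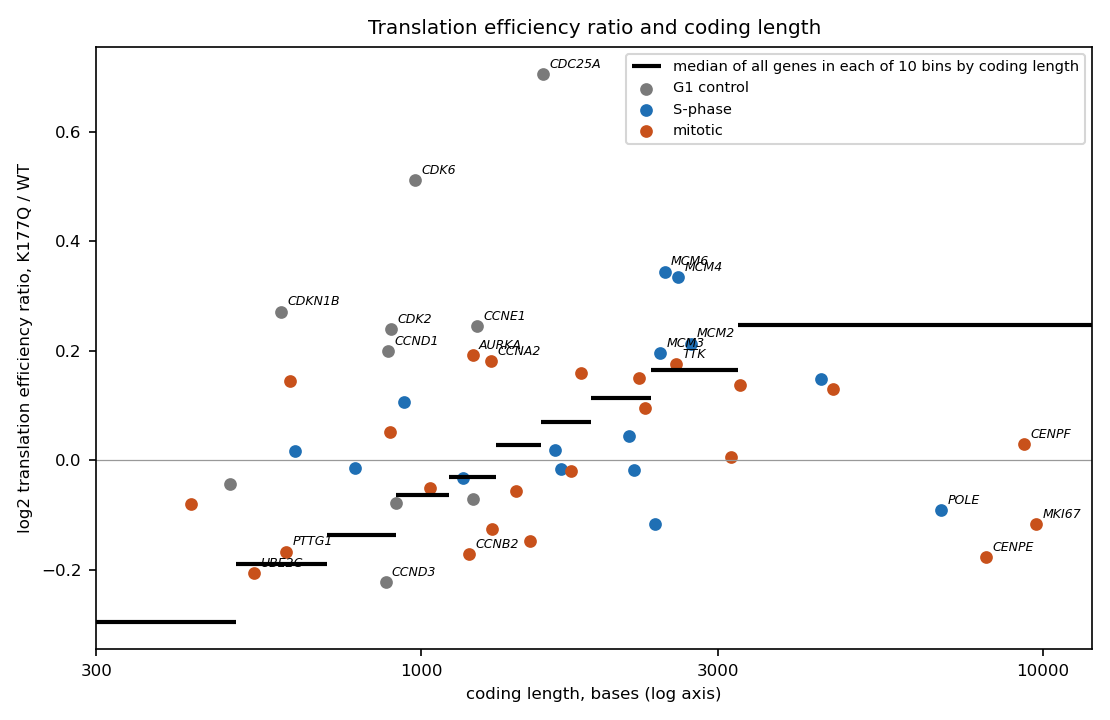
Log2 translation efficiency ratio (K177Q to WT) of each gene against its coding length in bases (log axis), coloured by class; bars are the medians of all genes in each of 10 bins by length, with the first and last bars cut at the axis ends. The bars climb from -0.30 to 0.25, while the correlation over the 48 members is 0.02.

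The plot of translation efficiency ratio and coding length sets MCM4 and MCM6 above the bar of their bin (0.16) and RRM1, at -0.12, below it. CDC25A and CDK6 stood above the bars of their bins (0.07 and -0.06). Taken relative to the median of all genes in the same length bin, the S-phase genes were lower in K177Q cells in 15 of 15 cases in the polysome fraction and 13 of 15 in the sub-polysome fraction. Relative to genes of like expression the counts were 15 and 15. For the mitotic genes they were 16 and 13 of 23 by length, and 11 and 20 by expression. The part of length or expression in these differences was not tested.

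Ratios of K177Q to WT were also set beside the promoter letters, as a description. The 9 S-phase genes with an E2F match had medians of -0.22 in the polysome and -0.36 in the sub-polysome fraction, and the 4 S-phase genes without had -0.24 and -0.22. Among mitotic genes, the 12 with a CHR match were at -0.09 in both fractions, and the 5 without at -0.09 and -0.04.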

How the data were processed

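Polysome profiling RNA-seq was analysed in 4 libraries, all of replicate 2 by their labels, each its own group. The authors deposited FPKM per gene. The submitters' processing notes name STAR 2.7, StringTie 2.1.5 and hg38 without giving their roles; the annotation, filters and any scaling between libraries are not given in the sources used here. The table's other 4 value columns could be tied to no listed sample and were left out. Log2 ratios were taken after adding 0.1 FPKM, genes averaging 1 FPKM or more in the 4 libraries were kept, and 1.5-fold, the study's threshold, was used for counts. No test across samples was possible. 1 listed cell line marker is not reported here.

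The members, classes and lists were chosen with earlier results of these data known. Genes given with all 4 values are those past 1.5-fold in the translation efficiency ratio or in either ratio of K177Q to WT; in each class the 2 with the highest and the 2 with the lowest polysome to sub-polysome ratio averaged over genotypes, those with the highest and lowest translation efficiency ratio, and the most abundant; and other pathway genes past 1.5-fold in translation efficiency (at most 5 in each direction). CDT1 was added after its values were seen. Other members are named where a role is described.

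Low values form steps once multiplied by transcript length, and the lowest step, within limits chosen after looking at the values (log10 between -1.6 and -1.3), was taken as 1 fragment. Depth and the SEs derived from it are approximate and cover counting error only. Lengths came from the canonical transcripts of GENCODE 44, found for all 48 genes, and promoters from RefSeq (GRCh38.p14). The ratio code was tested on simulated data. Alternatives were the pseudocount, the minimum, the scaling (TPM, size factors, centring), the fold, bins of coding length or expression (10 each) and the class borders. Python 3.11.15, pandas 2.3.3, numpy 2.4.6, scipy 1.17.1 and matplotlib 3.10.9 were used.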

Additional observations from a re-analysis of the deposited data

Results flagged for a closer look

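The polysome to sub-polysome ratio lay on opposite sides of 0 in WT and K177Q cells for 3 of the 48 genes, against 12.3% of all genes, and the difference was not tested, since each side is 1 library pair. The log2 translation efficiency ratio was 0.71 for CDC25A and 0.51 for CDK6, both below 0 in WT cells and above 0 in K177Q cells. For CDKN1A, which crossed in the other direction, the ratio was -0.044, about the size of its counting SE of 0.043. Which genes crossed depended on the scaling. With TPM 4 members did so (CDC25A, CDKN1B, BIRC5 and TOP2A), against 14.4% of all genes, and CDK6 and CDKN1A did not.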

How the results depend on the processing

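With 1 library per condition no replicate could be left out and no test was run, and the approximate depth sets counting error only. No paired test was possible because each group held 1 library. Of 193 values recomputed for 20 results under 12 settings, 161 stayed within 0.1 log2 (within 1.5 times for counts) and 32 moved further. Among medians of at least 0.1 in size, 0 turned to the opposite direction. Counts and smaller medians could not be labelled as turned. Of the 161, the 20 values without a minimum could not move, since all 48 genes were kept with it. Differences between the S-phase and mitotic medians are nearly fixed under any rescaling of whole libraries. TPM gave S-phase and mitotic polysome to sub-polysome medians of 1.36 and 1.03 in WT and 1.69 and 1.32 in K177Q cells. It also moved the all-gene medians of these ratios, by 0.13 in WT and 0.43 in K177Q cells. Translation efficiency ratios with TPM were 0.32, 0.30 and 0.52 (S-phase, mitotic, G1 control). Sub-polysome ratios of K177Q to WT were -0.47 and -0.30 (S-phase, mitotic), where the all-gene median moved by -0.20. With TPM, 4 of 48 members (8.33%) had a translation efficiency higher by 1.5-fold, against 18.6% of all genes on that scale. The mitotic polysome ratio of K177Q to WT, -0.05 as deposited, was 0.04 with TPM and 0.00 with expression bins. For S-phase and mitotic polysome to sub-polysome medians, centring gave 1.08 and 0.75 in WT and 1.09 and 0.73 in K177Q cells, and coding length bins gave 0.92 and 0.60, and 1.05 and 0.54. Size factors gave 1.15 and 0.79 in K177Q cells, and a pseudocount of 1 gave a mitotic median of 0.78 there. Expression bins gave mitotic medians of 0.67 and 0.72 in WT and K177Q cells, a difference between the classes of 0.53 in WT cells, and an S-phase translation efficiency ratio of 0.12. A minimum of 5 FPKM gave S-phase medians of 1.53 and 1.52, a difference between the classes of 0.62 in WT cells, and 0 members with a higher translation efficiency, since fewer genes were kept. At 2-fold, 19 members were polysome-high in K177Q cells and 0 had a higher translation efficiency. No share of all genes was taken at 2-fold, so these counts have no background beside them. Counting CCNE1, CCNE2, CDK2 and CDC25A as S-phase gave a K177Q S-phase median of 1.11. The causes of the other moves were not tested.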
